A study of Mus musculus with 11 samples.

Results

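The transcripts described here are those of 10 Polycomb complex subunits, chosen by symbol: Ezh2, Ezh1, Eed, Suz12, Jarid2, Mtf2, Phf19, Rnf2, Kdm2b and Pcgf6. All 10 were found among the 55228 symbols of the deposited tables and all 10 were among the 16420 genes with enough counts to be tested. They were measured by RNA sequencing in 11 libraries of the mouse embryonic stem (ES) cell line EN52.9.1, in which the endogenous CTCF, a DNA-binding zinc finger protein that anchors chromatin loops, carries an auxin-inducible degron in every group. EV untreated (3 libraries) received no auxin and is labelled wild-type. EV auxin (2 libraries) received the auxin indole-3-acetic acid, at 500 µM per the protocol, to deplete endogenous CTCF. FL auxin (3 libraries) and H373R auxin (3 libraries, titled ZF4) received the same treatment and had FL CTCF or CTCF with the H373R substitution reintroduced. The labels do not spell out EV or FL, the length of treatment or the way CTCF was reintroduced. All libraries come from the same line, and separate cultures are not named, so p-values measure the spread between these libraries, which may be technical.

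Polycomb proteins keep developmental genes silent and work in multi-subunit complexes. Polycomb repressive complex 2 (PRC2) methylates lysine 27 of histone H3 (H3K27) through Ezh2 or its paralog Ezh1, which are active only together with Eed and Suz12. Jarid2, Mtf2 and Phf19 are accessory subunits that guide PRC2 to chromatin. Polycomb repressive complex 1 (PRC1) ubiquitinates histone H2A through Rnf2 (also called RING1B) or Ring1, and in its variant forms Kdm2b brings it to unmethylated CpG islands while Pcgf6 forms a further variant complex. In mouse ES cells these complexes occupy the CpG island promoters of genes that become active during differentiation.

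Because the series concerns CTCF as a protein that binds G-quadruplexes, 4-stranded DNA structures formed by runs of G, the promoter sequences of 3 members are shown first. RefSeq promoter entries (GRCm38.p6) were found for 10 of 10 members, 15 entries in all, with a further start site for 3 members. Each sequence below is the gene strand over the 250 bases before a start site, from 5′ to 3′. Capitals mark stretches that match a G-quadruplex pattern, which is 4 runs of at least 3 G separated by 1 to 7 bases, sought on both strands. Jarid2 and Suz12 are shown because both were called lower in FL and H373R cells than in EV cells, and Eed because it was the only member called higher in FL than in EV auxin.
Jarid2, upstream start site (chr13:44730524-44730773, + strand): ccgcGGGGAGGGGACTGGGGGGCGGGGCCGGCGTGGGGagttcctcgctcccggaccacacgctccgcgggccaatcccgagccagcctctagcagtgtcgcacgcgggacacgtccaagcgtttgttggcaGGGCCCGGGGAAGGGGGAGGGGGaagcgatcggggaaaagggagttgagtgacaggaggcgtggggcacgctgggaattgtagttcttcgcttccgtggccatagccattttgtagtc
Jarid2, downstream start site (chr13:44731021-44731270, + strand): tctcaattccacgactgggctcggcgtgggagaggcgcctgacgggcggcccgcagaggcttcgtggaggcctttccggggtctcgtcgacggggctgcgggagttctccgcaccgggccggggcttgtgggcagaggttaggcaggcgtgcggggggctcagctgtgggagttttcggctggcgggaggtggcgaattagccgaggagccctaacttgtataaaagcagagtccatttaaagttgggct
Suz12 (chr11:79992856-79993105, + strand): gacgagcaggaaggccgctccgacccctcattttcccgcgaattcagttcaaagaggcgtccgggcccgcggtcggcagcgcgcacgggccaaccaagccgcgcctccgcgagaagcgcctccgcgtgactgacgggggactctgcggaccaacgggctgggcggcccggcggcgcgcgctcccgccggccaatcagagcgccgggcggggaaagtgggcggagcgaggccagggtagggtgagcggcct
Eed (chr7:89980977-89981226, - strand): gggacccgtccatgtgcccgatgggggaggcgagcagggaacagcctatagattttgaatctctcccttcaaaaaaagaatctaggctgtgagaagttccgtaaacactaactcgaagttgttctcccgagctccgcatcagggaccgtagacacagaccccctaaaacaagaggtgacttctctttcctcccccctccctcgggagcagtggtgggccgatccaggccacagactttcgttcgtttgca
The upstream Jarid2 entry held a pair of matching stretches on the gene strand, at 246 to 213 and at 118 to 96 bases before the start. The downstream Jarid2 entry and the Suz12 and Eed entries held no match on either strand. Among the 15 member entries, 5 held the pattern (33.3%), and they belonged to Jarid2, Phf19 and Kdm2b. By gene these are 3 of 10 members, since Kdm2b has several entries, some of them overlapping, and more than 1 held the pattern. The share was 16.7% of all 32851 promoter entries and 25.1% of the 14979 entries of tested genes. The 12-letter core of the CTCF motif was found in 0 of the 15 member entries on either strand and in 2.3% of the entries of tested genes. These are matches of letters in a short window and describe the sequence only. Which start site the cells used was not measured, and promoter binding was not part of these data.

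The libraries held 13465241 to 29902246 counts. The 8 ES cell markers summed to 10961 to 11957 TPM (transcript abundance scaled for gene length and library total) per library. Within that sum Nanog averaged 725 and 680 CPM in EV untreated and EV auxin against 535 and 580 CPM in FL and H373R, and Zfp42 739 and 725 CPM against 587 and 520 CPM. Dppa5a went the other way, averaging 627 and 580 CPM against 784 and 684 CPM. Against EV auxin, 3 of the 8 were called higher and 2 lower in FL, and 2 higher and 2 lower in H373R. Against EV untreated, 4 of the 8 were called lower and 1 higher in H373R, and 3 lower and 3 higher in FL. The 6 primitive endoderm markers, whose cells form the yolk sac, summed to 16.5 to 20.7 TPM in the EV libraries, 57.6 to 63.1 TPM in FL and 36.9 to 40.7 TPM in H373R, and none of them was at 0 in every library of a group. The 7 fibroblast markers summed to 48.4 to 56.5 TPM in EV and 63.3 to 73.1 TPM in FL and H373R, with Postn, Dcn and Lum at 2 counts or fewer in every library. Of the other 4, which were tested, 3 were called higher in FL than in either EV group. In H373R 1 was called higher against EV auxin and 2 against EV untreated. Col1a1 averaged 27.2 and 28.3 CPM in EV untreated and EV auxin against 39.4 and 35.8 CPM in FL and H373R. The 6 markers of 2-cell-like cells summed to at most 7.06 TPM in any library, and Tcstv1 was at 0 throughout. The 6 trophoblast markers summed to 240 to 268 TPM in EV untreated, 267 to 289 TPM in EV auxin, 264 to 297 TPM in FL and 291 to 302 TPM in H373R. Of the 5 tested, 4 were called higher and 1 lower in FL than in EV untreated, and 3 higher and 1 lower in H373R. Against EV auxin, 2 were called higher and 1 lower in FL, and 1 higher and 0 lower in H373R. EV untreated replicate 1 stood apart: the chi-square of its counts per degree of freedom was 15.6 and 14.9 against the other replicates of its group, compared with 1.93 to 4.77 for the other pairs of replicates. Among the members, this library was lower than the mean of the other EV untreated libraries by 0.43 (Rnf2), 0.33 (Mtf2) and 0.28 (Suz12) on the log2 CPM scale, and these are the 3 members of lowest GC content (39.5, 38.2 and 41.6%, against a median of 50.2% for the tested genes). It was 0.19 higher for Kdm2b and 0.15 higher for Phf19, the members of highest GC content (52.6 and 53.9%). Member calls that depend on this library are given with and without it. In bulk RNA, fewer cells of a kind and less RNA per cell cannot be told apart.

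The members differed widely in abundance per length, and the order below is on the TPM scale, averaged over the 4 groups. Mtf2 (275 TPM), Suz12 (260 TPM) and Jarid2 (230 TPM) were the most abundant, followed by Eed (197 TPM), Rnf2 (192 TPM) and Ezh2 (158 TPM). Pcgf6 (54.6 TPM), Ezh1 (29.1 TPM), Kdm2b (28.9 TPM) and Phf19 (13.6 TPM) lay well below these. Neighbours in this order overlapped across libraries for Mtf2 and Suz12 (239 to 331 and 203 to 338 TPM), Suz12 and Jarid2 (the latter 179 to 270 TPM), Jarid2 and Eed (the latter 180 to 227 TPM), Eed and Rnf2 (the latter 171 to 234 TPM) and Ezh1 and Kdm2b (26.4 to 32.6 and 26.3 to 31.7 TPM). Pcgf6 (48.0 to 57.2 TPM) did not overlap with Ezh2 above it (149 to 171 TPM) or with Ezh1 below it. The lowest count of a member in any library was 252, for Phf19.

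**Figure D1:**
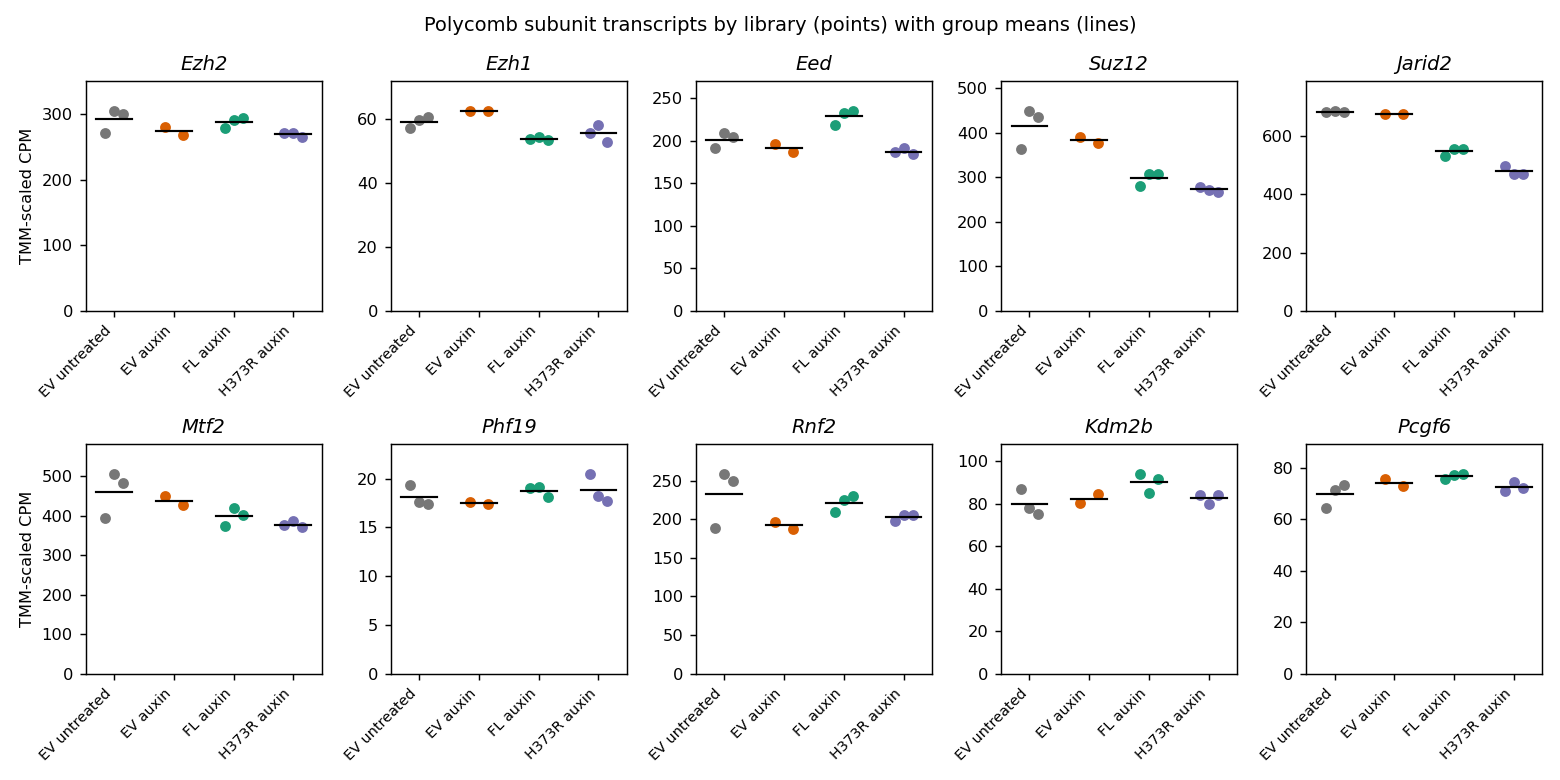
TMM-scaled CPM (counts scaled to the library total, vertical axis from 0) of the 10 subunits in each of the 11 libraries, with points for libraries and lines for group means. Jarid2 and Suz12 step down from the EV groups to FL and H373R, while Ezh2 stays between 266 and 305 CPM.

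The comparisons asked which of these transcripts differed between EV cells with and without auxin, and which differed between FL or H373R cells and the EV groups. No FL or H373R library went without auxin, and CTCF protein was not measured here. An effect of the CTCF put back thus cannot be told apart from other differences between the cells of these groups. None of the 10 members passed the threshold (edgeR adjusted p under 0.05) between EV auxin and EV untreated, where 20.7% of all tested genes did (11.3% higher, 9.40% lower), and 1 had an unadjusted p under 0.05 (Rnf2). DESeq2 called 1 member, Rnf2, beside 17.5% of all genes. With EV untreated replicate 1 left out, 4 members were called lower in EV auxin (Ezh2, Suz12, Mtf2 and Rnf2), where 33.3% of all genes were called. The CPM of the groups did not overlap for 2 members, beside 44.9% of all genes. Between FL and EV auxin 4 members were called, Eed higher and Suz12, Jarid2 and Ezh1 lower, beside 24.5% of all tested genes (11.1% higher, 13.4% lower), and 9 did not overlap (53.9% of all genes). Between H373R and EV auxin 3 were called, Suz12, Jarid2 and Ezh1, all lower, beside 21.7% of all tested genes (11.7% lower), and 6 did not overlap (57.0%). Both comparisons use the same 2 EV auxin libraries. Between H373R and FL 2 members were called, Eed and Jarid2, both lower in H373R, beside 5.96% of all tested genes (3.14% higher, 2.82% lower), and 7 did not overlap (28.8%). Against EV untreated, 5 members were called in FL, 2 higher and 3 lower (36.9% of all tested genes, 17.7% higher and 19.2% lower), and 5 did not overlap (43.4%). In H373R 3 were called, all lower (44.4% of all tested genes, 22.3% higher and 22.1% lower), and 3 did not overlap (51.0%). Whether the members were called more or less often than all genes was not tested. Without EV untreated replicate 1, which also enters the shared spread, the counts were 7 for FL against EV auxin (35.5% of all genes called), 4 for H373R against EV auxin (33.0%), 5 for H373R against FL (14.2%), 7 for FL against EV untreated (47.2%) and 7 for H373R against EV untreated (54.7%). The median log2 fold change of the members was -0.062 after auxin, 0.062 for FL against EV auxin, -0.032 for H373R against EV auxin and -0.11 for H373R against FL, beside 0.0087, -0.014, 3.1e-04 and 0.0025 over all tested genes.

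**Figure D2:**
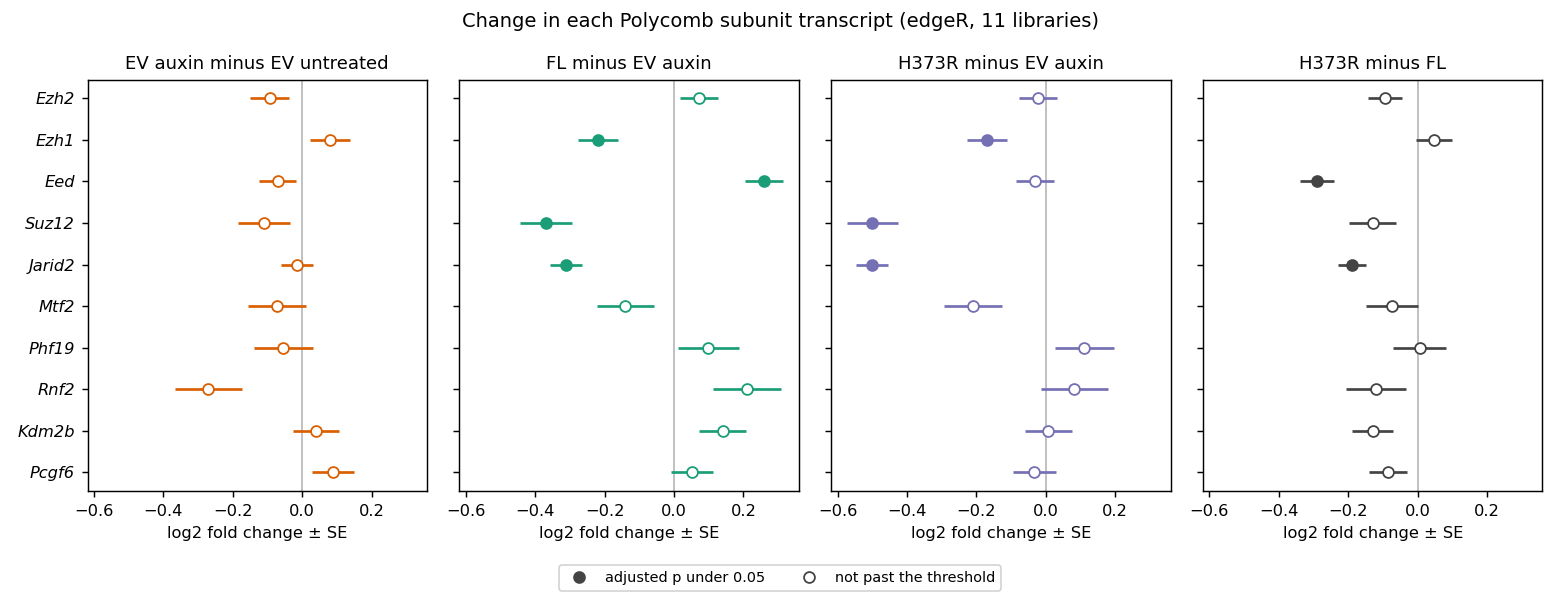
Log2 fold change with its standard error (horizontal axis) of each subunit in 4 comparisons, with filled points for an adjusted p under 0.05. No point is filled for auxin in EV cells, Suz12 and Jarid2 lie at -0.50 for H373R against EV auxin, and Eed lies at -0.29 for H373R against FL.

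Suz12, the PRC2 core subunit that holds the complex together, differed most between untreated and H373R cells. The gene lies on chromosome 11 (79993106 to 80034123, + strand, GRCm38). Suz12 had 363, 449 and 435 CPM in EV untreated, 391 and 378 CPM in EV auxin, 280, 308 and 307 CPM in FL, and 279, 271 and 268 CPM in H373R. Every FL and H373R library lay below every EV library. The log2 fold change was -0.37 ± 0.075 (SE) for FL against EV auxin (1.29-fold lower, edgeR adjusted p 0.0024) and -0.50 ± 0.074 (SE) for H373R against EV auxin (1.41-fold lower, adjusted p 3.92e-04). Against EV untreated it was -0.48 ± 0.067 (SE) in FL and -0.61 ± 0.067 (SE) in H373R. These 4 differences passed the threshold under each of 22 alternative settings, with values from -0.71 to -0.32. Adding auxin to EV cells gave -0.11 ± 0.075 (SE, adjusted p 0.331), or -0.21 without EV untreated replicate 1 (adjusted p 0.0023). H373R and FL did not separate beyond the test (-0.13 ± 0.067, SE, adjusted p 0.307), although all 3 H373R libraries lay below all 3 FL libraries by a narrow margin, and without EV untreated replicate 1 the difference was called (-0.14, adjusted p 0.034).

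Jarid2, the accessory subunit that recruits PRC2 and stimulates its activity, had the steadiest EV levels of the set. The gene spans 44729474 to 44921643 on the + strand of chromosome 13. It stood at 681, 686 and 682 CPM in EV untreated and 675 and 677 CPM in EV auxin, which differ by -0.015 ± 0.046 on the log2 scale (SE, adjusted p 0.86 by edgeR). In FL it stood at 530, 557 and 554 CPM, and in H373R at 497, 469 and 470 CPM. The EV, FL and H373R libraries thus formed 3 bands that did not overlap. Against EV auxin the log2 fold change was -0.31 ± 0.046 (SE, 1.24-fold lower, adjusted p 2.71e-04) in FL and -0.50 ± 0.046 (SE, 1.41-fold lower, adjusted p 1.26e-05) in H373R. H373R was below FL by a log2 fold change of -0.19 ± 0.041 (SE, adjusted p 0.011), a call lost when FL replicate 2 or 3 or H373R replicate 2 or 3 was left out (adjusted p 0.0516, 0.0586, 0.0653 and 0.0528) and on the unfiltered log2(TPM + 1) scale (0.053). Removing trends with GC content and transcript length reduced the differences from EV untreated by over 1.5 times while both stayed past the threshold, from -0.32 to -0.17 for FL against EV untreated and from -0.51 to -0.31 for H373R against EV untreated.

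Eed, the PRC2 core subunit that reads the methyl mark and stimulates the enzyme, followed another pattern. It lies on the - strand of chromosome 7 (89954654 to 89980983). Eed had 191, 209 and 204 CPM in EV untreated, 196 and 187 CPM in EV auxin, 218, 233 and 235 CPM in FL and 187, 191 and 184 CPM in H373R. Every FL library was above every library of the other groups, which overlapped with each other. Eed was 1.19-fold higher in FL than in EV auxin (log2 fold change 0.26 ± 0.055, SE, edgeR adjusted p 0.00341, or 0.0513 without EV auxin replicate 2) and higher than in EV untreated (0.18 ± 0.048, SE, adjusted p 0.00765, or 0.051 on the unfiltered log2(TPM + 1) scale). H373R did not differ from EV auxin by the test (-0.031 ± 0.054, SE, adjusted p 0.727) and was 1.22-fold below FL (-0.29 ± 0.049, SE, adjusted p 0.00229). The difference between H373R and FL passed the threshold under all 22 settings, from -0.32 to -0.26. Against EV untreated, H373R had -0.10 ± 0.048 (SE, edgeR adjusted p 0.0967), called at -0.15 without EV untreated replicate 1 (adjusted p 0.00702) and at -0.088 with trends removed (0.0335). After auxin in EV cells Eed had a log2 fold change of -0.071 ± 0.054 (SE, adjusted p 0.396).

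The catalytic subunits moved less. Ezh2, the main methyltransferase of dividing cells, had 272, 305 and 300 CPM in EV untreated, 280 and 269 CPM in EV auxin, 279, 292 and 294 CPM in FL and 272, 271 and 266 CPM in H373R, with overlap between all groups except FL and H373R. None of the 6 comparisons passed for Ezh2, and its smallest adjusted p by edgeR, 0.0651, came from H373R against EV untreated (log2 fold change -0.12 ± 0.049, SE). That difference was called at -0.18 without EV untreated replicate 1 (adjusted p 0.00128), and so was the one after auxin (-0.16, adjusted p 0.0124). Ezh1, the paralog that predominates in resting cells, had 57.3, 59.7 and 60.7 CPM in EV untreated, 62.6 CPM in both EV auxin libraries, 53.8, 54.4 and 53.4 CPM in FL and 55.8, 58.2 and 52.8 CPM in H373R. Ezh1 was lower than in EV auxin by a log2 fold change of -0.22 ± 0.058 (SE, adjusted p 0.0133) in FL and -0.17 ± 0.057 (SE, adjusted p 0.0440) in H373R. The FL call was lost without either EV auxin library (adjusted p 0.0790 and 0.104). The H373R call was lost in 14 of 22 settings, at adjusted p of 0.0522 to 0.187 in those, and among them were the removal of any single library other than EV untreated replicate 1. Without that replicate Ezh1 was also called lower than in EV untreated in FL (-0.16, edgeR adjusted p 0.0128, against 0.0504 with it) and in H373R (-0.13, 0.0380, against 0.162).

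Per length, Ezh2 outweighed Ezh1 in every library, and their ratio was compared because they fill the same place in PRC2. The log2 ratio of their TPM was 2.46 ± 0.054 (SD, n = 3) in EV untreated, 2.29 ± 0.041 (SD, n = 2) in EV auxin, 2.58 ± 0.041 (SD, n = 3) in FL and 2.44 ± 0.056 (SD, n = 3) in H373R. These are ratios of 5.50, 4.88, 5.96 and 5.41. Both EV auxin libraries (4.98 and 4.78) had a lower ratio than every other library, and all FL libraries (5.79 to 6.12) a higher ratio than every other library. By exact permutation, two-sided, p was 0.2 for EV auxin against EV untreated and for each comparison with EV auxin, 0.1 for FL against EV untreated and for H373R against FL, and 0.6 for H373R against EV untreated. The smallest p that this two-sided test allows is 0.2 for comparisons with the 2 EV auxin libraries and 0.1 for 3 against 3 libraries. Adjusted over the 6 comparisons the smallest was 0.24, so the test could not pass a threshold of 0.05.

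**Figure D3:**
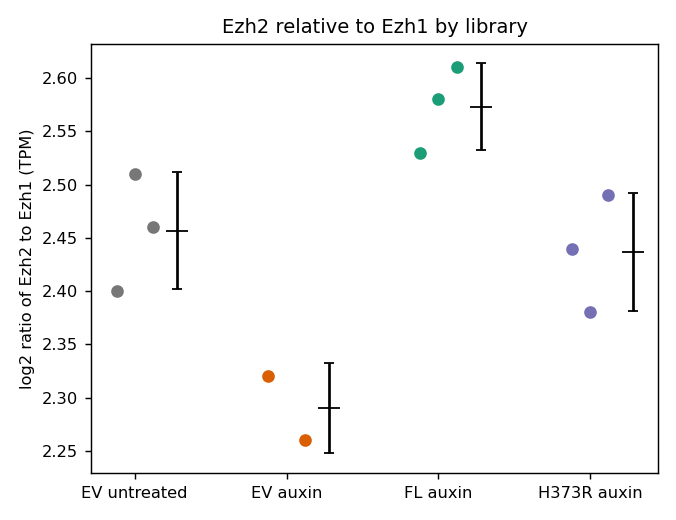
Log2 ratio of Ezh2 to Ezh1 on the TPM scale (vertical axis, which does not start at 0) in each library, with points for libraries and bars for the group mean ± SD. EV auxin is lowest at a mean of 2.29 and FL highest at 2.58.

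Among the other accessory subunits, Mtf2, which binds CpG islands and recruits PRC2, had, on the TPM scale, 258, 331 and 321 TPM in EV untreated, 297 and 290 TPM in EV auxin, 239, 265 and 261 TPM in FL and 247, 251 and 243 TPM in H373R. EV untreated replicate 1 overlapped with the FL values, and H373R lay below all EV libraries. Mtf2 was lower than in EV untreated in FL (log2 fold change -0.21 ± 0.074, SE, edgeR adjusted p 0.0363) and in H373R (-0.29 ± 0.074, SE, adjusted p 0.00548). The FL call was lost in 7 of 22 settings, among them without EV untreated replicate 2 or 3, FL replicate 1 or 3, or H373R replicate 2 (adjusted p 0.180, 0.124, 0.144, 0.0738 and 0.0542). Removing GC and length trends moved the H373R value to -0.066 (adjusted p 0.0577). Leaving out EV untreated replicate 1 added calls after auxin (-0.19, edgeR adjusted p 0.00799) and against EV auxin in FL (-0.13, 0.0498) and H373R (-0.21, 0.00178), which had adjusted p of 0.591, 0.247 and 0.0794 with it. Phf19, which reads methylated lysine 36 of histone H3, was the least abundant member, at 17.4 to 20.5 CPM over all libraries. Its group means on the TPM scale had the smallest range of the 10 members (0.068 on the log2 scale). None of its 6 comparisons passed (edgeR adjusted p at least 0.414). An opposite-strand gene, Tmed5 (27.02 to 36.52 CPM as group means), shares exonic sequence with Mtf2 in GENCODE M21, and since the strand setting of the counting is not given in the sources used here, reads of such pairs cannot be told apart.

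Of the PRC1 members, Rnf2, the ubiquitin ligase, had 189, 259 and 249 CPM in EV untreated, 197 and 187 CPM in EV auxin, 210, 225 and 230 CPM in FL and 198, 205 and 206 CPM in H373R. The low EV untreated value came from replicate 1 and lay among the EV auxin values, whereas the other EV untreated libraries were above every auxin-treated library. The log2 fold change after auxin was -0.27 ± 0.097 (SE, edgeR adjusted p 0.0584). It passed with 5 of 22 settings, all in the same direction, including no filter on low counts (-0.28, adjusted p 1.64e-04) and DESeq2 (-0.29, adjusted p 0.0336), and was -0.42 without EV untreated replicate 1 (adjusted p 8.47e-07). FL differed from EV auxin by 0.21 ± 0.098 on the log2 scale (SE, edgeR adjusted p 0.140), which 4 of 22 settings called higher: no count filter (0.00714), only the libraries compared (0.00567), trends removed (5.92e-04) and without EV untreated replicate 1 (9.21e-04). Without that replicate Rnf2 was also called lower in H373R than in FL (-0.13, adjusted p 0.0364) and lower than in EV untreated in FL (-0.20, 0.00111) and H373R (-0.33, 1.60e-06). With it these had adjusted p of 0.461, 0.572 and 0.0813, and for FL against EV untreated the value turned to 0.034 (adjusted p 0.498) with trends removed. Trmt1l, on the opposite strand, overlaps exons of Rnf2 and had 94.2 to 112 CPM as group means. Kdm2b had 87.1, 78.0 and 75.2 CPM in EV untreated, 80.2 and 84.4 CPM in EV auxin, 94.2, 85.3 and 91.6 CPM in FL and 84.3, 80 and 84.0 CPM in H373R. FL against EV untreated was called (0.18 ± 0.060, SE, edgeR adjusted p 0.0330), and 10 of 22 settings lost it, including the removal of EV untreated replicate 2 or 3, FL replicate 1 or 3, or H373R replicate 1 or 3 (adjusted p 0.05 to 0.148). FL against EV auxin (0.14 ± 0.068, SE, edgeR adjusted p 0.163) and H373R against FL (-0.13 ± 0.060, SE, 0.244) were called without EV untreated replicate 1 (0.026 and 0.0426) and with trends removed (0.0196 and 0.0457). Rnf34, on the opposite strand, overlaps Kdm2b exons at 61.1 to 66.5 CPM. Pcgf6 stayed at 64.4 to 77.7 CPM and none of its 6 comparisons passed. The nearest was FL against EV untreated (0.14 ± 0.055, SE, edgeR adjusted p 0.0556), which was called without EV untreated replicate 3 (0.18, adjusted p 0.0339) and with trends removed (0.18, 4.51e-04). Trend removal also called Pcgf6 higher after auxin (0.13, edgeR adjusted p 0.0203) and in H373R against EV untreated (0.13, 0.00415).

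The members did not vary as a block. Across the 11 libraries, Pearson's r of log2 CPM was 0.95 for Suz12 and Jarid2, 0.92 for Suz12 and Mtf2 and 0.92 for Ezh2 and Rnf2, but 0.01 for Suz12 and Eed and -0.67 for Ezh1 and Kdm2b. These values describe 11 libraries that share depth and GC trends and carry no test. Among 10071 other genes whose log2 CPM averaged 3 or more, the most similar profiles over the 11 libraries were Mettl16 (r = 0.994) and Ppp1r12a (r = 0.993) for Suz12, Ubn2 (r = 0.989) and Rnf6 (r = 0.987) for Jarid2, and Trim24 (r = 0.983) and Zfp36l1 (r = 0.959) for Eed. Ubn2 went from 54.6 CPM in EV untreated and 50.9 CPM in EV auxin to 37.3 CPM in FL and 31.6 CPM in H373R. Trim24 stood at 122, 120, 137 and 116 CPM in the same order. For Mtf2 they were Xpo1 and Gnai3 (r = 0.988 each), for Ezh1 they were 4931406C07Rik (r = 0.974) and Ttll5 (r = 0.967), and for Kdm2b they were Scaf1 (r = 0.958) and Tcf15 (r = 0.946).

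The rest of the Polycomb machinery was taken, together with 12 genes of enzymes and subunits that oppose it, from lists of 62 genes, of which 61 were tested. After auxin 14 of the 61 were called, 6 higher and 8 lower, beside 20.7% of all genes, and the median log2 fold change was -2.7e-04. The count was 27 without EV untreated replicate 1, where 33.3% of all genes were called. It was smaller without either EV auxin library, a fit that leaves 1 library in that group and also called fewer of all genes. Of 7 other PRC2 genes tested, 2 were lower, namely Aebp2 (-0.19 ± 0.063, SE, edgeR adjusted p 0.0461), a subunit that contacts nucleosomes, and Lcorl (-0.45 ± 0.11, SE). Of 14 canonical or shared PRC1 genes, 3 were higher and 2 lower. Scml2, a PRC1 partner known from the male germline, averaged 6.61 ± 0.824 CPM in EV untreated (SD, n = 3) and 20.1 ± 0.743 CPM in EV auxin (SD, n = 2). This difference was 1.62 ± 0.10 on the log2 scale (SE, edgeR adjusted p 3.29e-08). Scml2 was at 9.43 ± 0.732 CPM in FL and 11.6 ± 0.779 CPM in H373R (SD, n = 3 each), lower than EV auxin in both (-1.10 ± 0.11 and -0.79 ± 0.10, SE). Cbx6, a chromodomain subunit of PRC1, was lower in EV auxin (log2 fold change -0.34 ± 0.063, SE). Of 17 variant PRC1 genes, 2 were higher (Bcor at 0.27 ± 0.057 and Max at 0.20 ± 0.052, SE) and 3 lower, among them the deacetylase Hdac1 (-0.30 ± 0.060, SE). Of 11 genes of the deubiquitinase that removes the PRC1 mark, Kdm1b was higher (0.33 ± 0.071, SE) and Mbd5 lower (-0.44 ± 0.11, SE).

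In the FL and H373R groups, the genes of this pooled list called against EV auxin were mostly lower. The lower ones were 12 of 16 in FL (24.5% of all genes called, 13.4% lower) and 20 of 21 in H373R (21.7% called, 11.7% lower). Of the lower genes, 4 and 6 belong to the opposing genes, so 8 of 12 and 14 of 15 were lower among the Polycomb genes themselves. With GC and length trends removed, chosen after seeing the data, the split was 11 higher and 20 lower in FL and 8 higher and 20 lower in H373R. There 35.3 and 30.5% of all genes were called. On the log2(TPM + 1) scale no gene of the pooled list was called higher (0 and 15 lower in FL, 0 and 20 lower in H373R), where 28.1 and 35.4% of the calls over all genes were higher, against 45.2 and 46.1% in the count fit. The FL count was 27 without EV untreated replicate 1, where 35.5% of all genes were called. Without either EV auxin library, which leaves 1 in that group, fewer were called in FL and H373R, as were fewer of all genes. Aebp2 was among the genes called lower, at -0.22 ± 0.064 (SE, edgeR adjusted p 0.0188) in FL and -0.33 ± 0.063 (SE, adjusted p 0.00184) in H373R. The opposing genes, the H3K27 demethylases and the Trithorax group, had 0 of 12 called after auxin (1 with an unadjusted p under 0.05), 4 of 12 called in FL and 6 of 12 in H373R, all lower. The H373R calls, named here after their values were seen, included the demethylases Kdm6a (-0.38 ± 0.093, SE) and Kdm6b (-0.20 ± 0.067, SE) and the Trithorax genes Kmt2a (-0.68), Kmt2c (-0.64) and Ash1l (-0.74). Between H373R and FL 1 of the 61 passed by edgeR (5.96% of all genes), and 10 had an unadjusted p under 0.05. Without EV untreated replicate 1, 9 of the 61 passed (3 higher, 6 lower), beside 14.2% of all genes.

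Developmental regulators that carry H3K27 methylation in ES cells were examined as known Polycomb targets. The list held 48 genes, outside the Hox clusters, of which 34 passed the filter on low counts. After auxin 14 were called and all 14 were higher (11.3% of all tested genes were called higher), with a median log2 fold change of 0.59 over the 34, beside 0.0087 over all genes. Since a silent gene passes the filter only through the group where it is high, the counts and medians, here and below, describe the genes that passed and not the whole list. The medians are partly set by that filter, so no rise of the list is read from them. Without EV untreated replicate 1, 18 were called higher and 0 lower, where 33.3% of all genes were called. Dlx2, a homeobox gene of the forebrain, averaged 0.778 ± 0.0757 CPM without auxin (SD, n = 3) and 4.08 ± 0.281 CPM with it (SD, n = 2), and the fitted difference was 2.38 ± 0.18 (log2, SE, adjusted p 1.47e-07 by edgeR). Gata4, an endoderm and heart factor, rose by 0.66 ± 0.11 (SE). Against EV auxin, 8 of the 34 were called higher and 6 lower in FL (11.1 and 13.4% of all genes), and 9 higher and 1 lower in H373R (21.7% of all genes called, 11.7% lower). Against EV untreated, 18 were called higher and 1 lower in FL (17.7 and 19.2% of all genes), with a median log2 fold change of 0.52. In H373R 23 were higher and 2 lower than in EV untreated (22.3 and 22.1% of all genes), with a median of 0.85. Gata6 and Gata4, which also belong to the endoderm markers above, were at 18.1 ± 0.322 and 17.9 ± 0.379 CPM in FL and 10.8 ± 0.555 and 13.1 ± 0.228 CPM in H373R (SD, n = 3 each). Between H373R and FL, 5 were higher and 4 lower (5.96% of all tested genes called), with Dlx2 at 1.53 ± 0.14 (SE, adjusted p 7.47e-06) and Gata6 at -0.74 ± 0.074 (SE, adjusted p 2.31e-05 by edgeR). These counts were 7 and 7 without EV untreated replicate 1 (14.2% of all genes). The endoderm and fibroblast marker sums and the mean levels of Nanog, Zfp42 and Dppa5a given above moved with the FL and H373R groups. Among these, Nanog and Zfp42 were lower there and the others higher. Their part, and that of the trophoblast markers, in these results and in those for Suz12, Jarid2 and Eed was not tested.

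**Figure D4:**
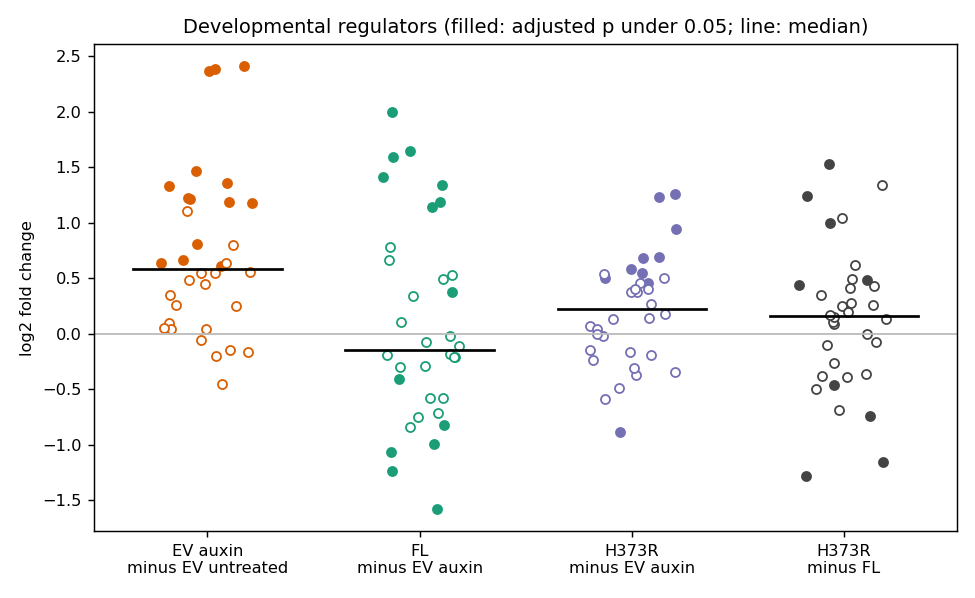
Log2 fold change (vertical axis) of the 34 developmental regulators tested, in 4 comparisons, with filled points for an adjusted p under 0.05 and a line at the median. After auxin all 14 filled points lie above 0 (median 0.59), while FL against EV auxin has 8 above and 6 below. Some of the 34 may have passed the filter on low counts only through a group where they are high.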

How the data were processed

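RNA-seq libraries of EN52.9.1 ES cells were made with a strand-preserving kit for Illumina sequencing, per the labels' protocols. The authors deposited raw counts per gene symbol and TPM values for the same libraries. The submitters' processing notes name featureCounts, Subread 2.0.3, DESeq2 and mm10 (GRCm38), with no role given. The aligner, annotation and strand setting are not given in the sources used here. The deposited TPM values equal counts over 1 fixed length per gene (relative difference at most 1.09e-14). No column belonged to other samples (0) and every row named a gene.

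Counts were tested with edgeR 4.0.16 (R 4.3.3): TMM scaling, filterByExpr by group, a group-means model over all 11 libraries, the quasi-likelihood F test, and Benjamini-Hochberg adjustment over 16420 genes at a threshold of 0.05. Log2 fold changes carry the model's SE. CPM were scaled by TMM and are given as mean and SD. The common biological coefficient of variation was 0.0578. Coordinates and transcript GC content are from GENCODE M21 (GRCm38). No interval was needed for counting error, since each member had at least 252 counts per library. The model fit was tested on simulated counts.

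The members, gene lists and rules were chosen with earlier results of these data known. All members are named. From each other list, up to 3 genes with the smallest adjusted p after auxin and up to 2 for H373R against FL are named, if log2 CPM averaged 1 or more. Like profiles are the 2 genes with the highest r for each member called in any comparison. Other scalings (RLE, upper quartile), DESeq2 1.42.0, other count filters (none, or 10 counts or more per library), a fit to the compared libraries alone, a replicate block and the omission of each library were tried. So was limma 3.58.1 on log2(TPM + 1), among genes reaching 1 TPM in 2 libraries, with 0.1 as another pseudocount and with all genes kept. The ratio of Ezh2 to Ezh1 was also taken on CPM. Removal of GC content and length trends was chosen after seeing the data. Ezhip was not analysed here. Some genes that the naming rule chose are not reported here.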

Additional observations from a re-analysis of the deposited data

Results flagged for a closer look

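By the direct edgeR test of H373R against FL, 2 of the 10 members differed, beside 5.96% of all tested genes. Eed had a log2 fold change of -0.29 (adjusted p 0.00229), with all 3 H373R libraries below all 3 FL libraries. Jarid2 had a log2 fold change of -0.19 (adjusted p 0.011), with no overlap between the same libraries. The Eed call held under all 22 alternative settings, while the Jarid2 call was lost in 5 of 22 (edgeR adjusted p up to 0.0653). In this comparison 7 of the 10 members and 28.8% of all tested genes did not overlap.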

How the results depend on the processing

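Machinery genes here include the opposing genes. Of 60 member differences, 19 kept their direction and their side of the threshold under all 22 alternative settings. With RLE scaling, DESeq2 or no count filter, 1 member was called after auxin, where the report has 0. Of all genes, 20.8, 17.5 and 11.7% were called after auxin in these settings. With GC content and length trends removed, chosen after seeing the data, members called were 2 after auxin, 7 for FL against EV auxin and 5 for H373R against EV auxin. There 30.4, 35.3 and 30.5% of all genes were called. Machinery genes called in that setting were 25 after auxin, 31 for FL against EV auxin, 10 for H373R against FL and 40 for FL against EV untreated. Of all genes, 30.4, 35.3, 13.4 and 45.2% were called in the same order. Fitting only the compared libraries gave 7 machinery genes after auxin (12.4% of all genes called) and 3 for H373R against FL (11.7%). It gave 3 members for FL against EV untreated (30.1%). Unfiltered log2(TPM + 1) gave 8 machinery genes after auxin (7.93% of all genes called), 1 member for H373R against FL (1.93%) and 3 members for FL against EV untreated (16.2%). With no count filter 2 machinery genes were called for H373R against FL (4.25% of all genes). Whether the replicate numbers pair the libraries was not tested: 3 of 15 same-numbered pairs had r over 0.1 (-0.087 to 0.282), beside -0.197 to 0.134 for the other pairs. Of the 11 libraries, 7 correlated best with their own number. With the replicate block, members called were 0 after auxin, 4 for FL and 2 for H373R against EV auxin, 2 for H373R against FL, and 5 for FL and 3 for H373R against EV untreated, and machinery genes for H373R against FL were 2. In that fit 19.5, 24.2, 21.5, 5.74, 37.4 and 45.3% of all genes were called, in the same order of comparisons.

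Leaving out 1 library at a time, members called ranged from 0 to 4 after auxin, 2 to 7 for FL and 2 to 4 for H373R against EV auxin, 1 to 5 for H373R against FL, and 3 to 7 for FL and 3 to 7 for H373R against EV untreated. Machinery genes ranged from 5 to 27, 7 to 27, 8 to 28, 0 to 9, 22 to 32 and 26 to 41 in that order. Where 1 library of EV auxin remained, it was assumed to vary like the other groups. The share of all genes called shifted between these fits as well. It was highest without EV untreated replicate 1, at 33.3, 35.5, 33.0, 14.2, 47.2 and 54.7% in that order (reported 20.7, 24.5, 21.7, 5.96, 36.9 and 44.4%). The lowest share was 3.12% for H373R against FL, 28.9% for FL against EV untreated and 36.8% for H373R against EV untreated. For the comparisons with EV auxin the lowest shares came from the fits with 1 EV auxin library. The log2 ratio of Ezh2 to Ezh1 differed by -0.20 to -0.14, 0.26 to 0.32, 0.12 to 0.18, -0.17 to -0.11, 0.089 to 0.14 and -0.051 to 0.0061 in that order. The cause of these shifts was not tested.

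Small uncalled differences changed sign in 36 instances over 15 member comparisons, none of them called (smallest adjusted p 0.416). After auxin these were Jarid2 (0.0097 on each TPM scale, 0.038 with trends removed), Mtf2 (0.024 with trends removed) and Kdm2b (-0.011 to 0.093 with 1 library left out). Pcgf6 for FL against EV auxin was -0.014 on each TPM scale. For H373R against EV auxin, trend removal gave 0.017 for Ezh2 and 0.0054 for Pcgf6, the TPM scales gave -0.028, -0.029 and -0.028 for Kdm2b, and with 1 library left out the ranges were -0.051 to 0.0079 for Ezh2, -0.063 to 0.0021 for Eed and -0.028 to 0.046 for Kdm2b. For H373R against FL, trend removal gave 0.011 for Mtf2 and -0.037 for Phf19, and Phf19 was -0.0028 with RLE or DESeq2 and -0.072 to 0.041 with 1 library left out. For FL against EV untreated, trend removal gave 0.019 for Ezh2, -0.019 for Phf19 and 0.034 for Rnf2, and leaving out 1 library gave -0.073 to 0.016 for Ezh2 and -0.20 to 0.023 for Rnf2. For H373R against EV untreated, Phf19 was -0.056 with trends removed, and leaving out 1 library gave -0.028 to 0.094 for Phf19 and -0.011 to 0.096 for Pcgf6. Over all genes, calls moved by over 1.5 times in places, the lowest and highest counts over the settings being 1569 and 5444 after auxin (reported 3392), 1879 and 5800 for FL against EV auxin (reported 4016), 1502 and 5909 for H373R against EV auxin (reported 3570), 510 and 2323 for H373R against FL (reported 979).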
